A study of Mus musculus with 12 samples.

Results

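The genes described here are Klb, the 4 FGF receptors Fgfr1 to Fgfr4 and the ligands Fgf1, Fgf2, Fgf7, Fgf10 and Fgf21, 10 of the 54532 genes in the deposited count table. They were picked by symbol. Klb was put on the list because it fell in the comparison described here, so its difference between the groups is given as a description without a test. All 10 passed the filter on low counts, as did 16393 genes in all. RNA came from whole lysate of mouse tibialis anterior, a fast muscle at the front of the lower leg, taken 5 days after glycerol was injected. Glycerol injures the muscle, and fat then forms between the regenerating fibres. The 6 control libraries carry the genotype label "Wildtype", and the 6 knockout libraries the label "FAP no ppary". In the knockouts Pparg, which encodes the nuclear receptor that drives fat cell formation, was deleted conditionally in FAPs, fibro-adipogenic progenitors, a mesenchymal cell type of muscle able to turn into fat cells. Both groups were injured and both bear the strain label 129svlmJ, which the labels give under a cell line field. Sex, age, the Cre driver and whether each library is a separate animal are given by none of the sources used here, so the p-values below measure only the spread between these libraries.

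Fibroblast growth factors signal through receptor tyrosine kinases. Paracrine ligands such as FGF1, FGF2, FGF7 and FGF10 bind their receptors together with heparan sulphate, whereas the endocrine ligand FGF21 binds heparan sulphate weakly and needs beta-Klotho, the membrane protein encoded by Klb, beside a receptor. Beta-Klotho is abundant in liver and fat, and in fat it pairs mainly with FGFR1. In muscle FGFR1 and FGFR4 are found on myogenic cells, FGF2 acts on satellite cells, FGF7 and FGF10 are made by mesenchymal cells, and FGF21 can be made by stressed muscle fibres.

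Promoter sequence is shown for Klb because its RNA fell, for Fgfr3 because its 2 groups of libraries did not overlap, and for Fgf21 because its known stress response can be looked for in the letters. Each sequence is the 250 bases before a RefSeq start site on the gene's own strand (RefSeq, GRCm38.p6). Such entries were found for 8 of the 10 genes, all but Fgfr1 and Fgf1. Klb lies on the plus strand (chr5:65348161-65348410), the first of 2 Fgfr3 entries on the plus strand (chr5:33721474-33721723) and Fgf21 on the minus strand (chr7:45615491-45615740). The count table starts Klb at 65348314 and Fgfr3 at 33721674, inside these stretches, so their ends lie within the counted genes. Distances below are from the RefSeq starts. In Klb the capitals mark the stretch closest to a direct repeat of AGGTCA with 1 base between, the kind that PPARG and RXR bind. In Fgfr3 they mark the E-box CAGCTG, and in Fgf21 a minus strand match to TGATGNAA (an amino acid response element) and TATAAA.
Klb: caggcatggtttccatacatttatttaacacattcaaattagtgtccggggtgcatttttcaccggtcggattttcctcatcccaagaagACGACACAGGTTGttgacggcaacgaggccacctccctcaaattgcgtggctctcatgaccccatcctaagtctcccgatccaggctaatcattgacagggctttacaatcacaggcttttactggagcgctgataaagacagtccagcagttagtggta
Fgfr3: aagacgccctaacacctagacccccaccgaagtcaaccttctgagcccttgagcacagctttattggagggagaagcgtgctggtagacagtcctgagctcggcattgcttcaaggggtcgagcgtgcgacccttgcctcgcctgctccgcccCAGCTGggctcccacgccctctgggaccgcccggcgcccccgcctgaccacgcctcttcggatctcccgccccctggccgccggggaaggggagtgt
Fgf21: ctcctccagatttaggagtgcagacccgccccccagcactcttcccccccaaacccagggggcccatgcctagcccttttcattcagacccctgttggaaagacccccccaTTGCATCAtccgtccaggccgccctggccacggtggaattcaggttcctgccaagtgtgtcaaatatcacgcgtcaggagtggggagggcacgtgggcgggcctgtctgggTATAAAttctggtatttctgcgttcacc

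Both strands were searched from 250 bases before to 50 bases after each start, and the same was done in 32817 promoters. The Klb window held none of the 6 motifs searched, which were the hexamer AGGTCA, its direct repeat, the C/EBP motif TTGCNNAA, the response element TGATGNAA, the E-box CAGCTG and the TATA box TATAAA. Its closest stretch to the direct repeat began 160 bases before the start and matched 8 of 12 letters, a match that 79.8% of promoters reach or exceed. The full repeat was found in 0.0396% of promoters, the hexamer AGGTCA in 16.3% and TTGCNNAA in 10.8%. The hexamer overlaps the repeat by construction. Fgf7 held AGGTCA at position -47. The Fgf21 window held TGATGNAA at -139 (3.97% of promoters hold it), TATAAA at -28 (13.6%) and a CAGCTG at 21 after the start (16.3%), and the first Fgfr3 window held CAGCTG at -97. These matches describe letters, not bound sites.

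Library totals ran from 15716056 to 29790720 counts, and protein-coding genes of the mitochondrial genome took 2.66% to 10.8% of them. This is the mitochondrial share of counts used below. Pparg fell from 57.4 ± 8.27 in controls to 26.4 ± 10.3 CPM (n = 6 each, SD), and no library overlapped the other group. Its log2 fold change of -1.12 (SE 0.21) had adjusted p = 0.0299 by edgeR's quasi-likelihood test with Benjamini-Hochberg adjustment. CPM is the count scaled to library size, with sizes corrected by TMM. Of all genes tested, 131 passed an adjusted p of 0.05, which is 0.799%, and 123 of these, 0.75%, were lower in the knockouts. The median log2 fold change of all tested genes was -0.0013. Libraries were compared at 35 autosomal loci with separate high and low levels. A pair was formed where agreement was at least 75% and each library was the other's best match in its group. The 5 pairs so formed agreed in 77.1% to 100% of loci, and all other pairs, across groups too, in 40% to 74.3%. This rule sets part of that gap, and whether paired libraries are related was not tested. The pairs were controls 2 and 3, controls 4 and 5, and knockouts 1 and 2, 3 and 4, and 5 and 6. With each pair summed into 1 sample, edgeR called 0 genes at the adjusted threshold, while 1127 had an unadjusted p under 0.05. The summed fit holds fewer samples than the 12 libraries, which lowers its power. The part of this in the 0 calls was not tested.

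Klb, the beta-Klotho gene (ENSMUSG00000029195, chromosome 5, 65348314 to 65384007, plus strand, 5 exons, GRCm38), was lower in every knockout library. Controls 1 to 6 held 7.62, 8.61, 5.05, 7.10, 5.37 and 6.09 CPM, and knockouts 1 to 6 held 3.14, 3.25, 2.25, 1.03, 0.764 and 1.89 CPM. The highest knockout, replicate 2, was below the lowest control, replicate 3. Knockouts 4 and 5 were lowest and rested on 15 and 14 counts, against 120 to 187 counts in controls. The mean was 6.64 ± 1.38 CPM (SD, n = 6) in controls and 2.05 ± 1.04 (SD, n = 6) in knockouts, or 30.9% of the mean of the controls. The log2 fold change was -1.67 (SE 0.30, 95% interval -2.32 to -1.03). That interval does not allow for the choice of Klb by its fall and is no test. The fold change ranged from -1.84 to -1.50 with each library left out in turn. On the log2(FPKM + 1) scale, which compresses low values, it was -0.76. Groups that did not overlap, with the knockouts lower, occurred in 1.27% of tested genes. In whole muscle, fewer cells of a type and less RNA per cell cannot be told apart, here and for every gene below.

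**Figure D1:**
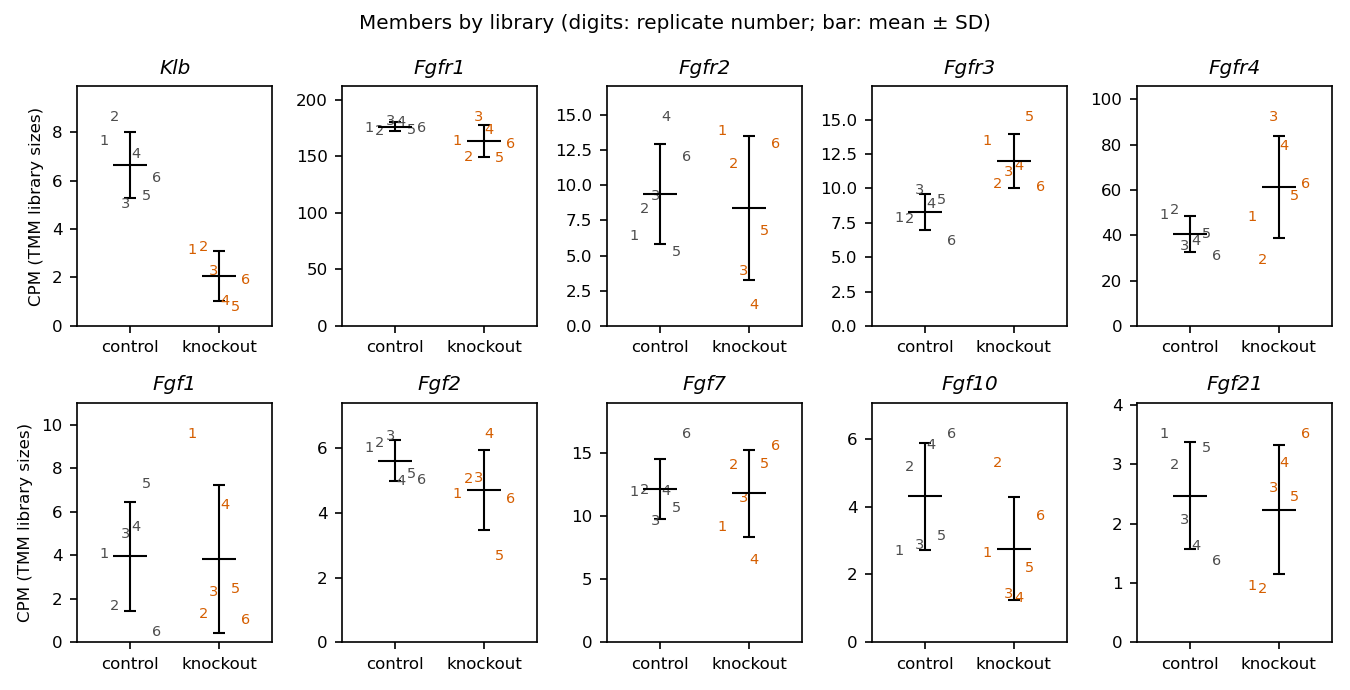
Level of each of the 10 genes in CPM (y axis, from 0, a scale per gene) in the 6 control (grey) and 6 knockout (orange) libraries. Digits give the replicate number, and bars the mean ± SD. Klb and Fgfr3 are the genes whose groups do not overlap, from 0.764 to 3.25 CPM in knockouts against 5.05 to 8.61 in controls for Klb and from 10.1 to 15.2 against 6.19 to 9.84 for Fgfr3.

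The size of the fall in Klb lay within that of adipocyte markers. As Klb was chosen by this fall, its place among them is a description and tests nothing. Of 24 adipocyte markers, 8 had a larger fall than Klb, and the median of the list was -1.56 on the log2 scale. In that list 7 genes passed the adjusted threshold (edgeR quasi-likelihood), all of them lower, against 0.75% of all tested genes. DESeq2 called 19 of the 24 and limma-voom 18, against 2.43% and 2.37% of all genes, while with library pairs summed edgeR called 0 genes of any kind. The summed level of the 24 markers was 4582 to 7215 CPM in controls and 980.1 to 3427 CPM in knockouts. Fabp4, the fatty acid binding protein of fat cells, fell by 1.63 on the log2 scale (SE 0.26), and Lpl, lipoprotein lipase, fell by 1.22 (SE 0.22). Adipoq, which encodes adiponectin, had a fold change of -1.75 (SE 0.46), and Plin1, which coats lipid droplets, one of -1.57 (SE 0.39). Both missed the threshold (adjusted p = 0.123 and 0.103, edgeR quasi-likelihood, Benjamini-Hochberg).

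An adipocyte score, the mean log2 CPM of the 24 markers, was computed for each library. It was 6.02 ± 0.30 (SD, n = 6) in controls and 4.27 ± 1.00 (SD, n = 6) in knockouts. The log2 CPM of Klb minus this score was -3.29 ± 0.25 in controls and -3.34 ± 0.68 in knockouts. Single knockouts ranged from -4.48 in replicate 4 to -2.49 in replicate 6, a range that covered all controls. The Klb values in this comparison of groups are those by which Klb was chosen. The part of fat cell number in the fall of Klb was not tested. Hepatocyte markers were at or near 0: none of the 9 passed the filter, 2 had no count in any library, and the highest single value was 0.483 CPM.

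Within groups, which the choice of Klb did not use, Klb and the adipocyte score had a Pearson r of 0.662 in controls (rho = 0.714) and 0.739 in knockouts (rho = 0.771). Neither passed an exact permutation test over 6 libraries (p = 0.167 and 0.0944 for r, 0.273 and 0.252 after adjustment over 8 relations, and p = 0.136 and 0.103 for rho, 0.272 each after adjustment). Without the 2 libraries farthest from the median score, r was 0.581 and 0.675. The relation was positive in both groups, but 6 libraries did not separate it from no relation.

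The genes most like Klb were sought by the correlation of log2 CPM over the 12 libraries after removal of each group's mean, among 12527 protein-coding genes. The 6 highest values were 0.938 for Mea1, 0.927 for Fam110c, 0.923 for Car5b, a mitochondrial carbonic anhydrase, 0.912 for Rasd1, a Ras-related GTPase, 0.905 for Nat8l, which makes N-acetylaspartate, and 0.905 for Ehmt2, a histone methyltransferase. Mea1 and Ehmt2 hardly differed between the groups in level (log2 fold change -0.02 and -0.10), while the other 4 were lower in knockouts, from -1.88 for Fam110c to -1.23 for Car5b. Among fat cell genes, Plin1 ranked 23 (r = 0.864), Lpl 32 (0.850), Pparg 119 (0.769), Fabp4 268 (0.712) and Adipoq 421 (0.661). These values describe 12 libraries, some of which agree in pairs as given above. The 6 genes were the highest of 12527, and how high unrelated genes would reach was not tested. The log2 CPM of Klb varied more in knockouts (SD 0.80) than in controls (SD 0.30), so knockouts weigh more here.

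No tested gene near Klb had a fall of like size. Within 250000 bases lie 10 other protein-coding genes, of which Gm43552 had no counts. The 9 tested were Klhl5, Wdr19, Rfc1, Rpl9, Lias, Ugdh, Smim14, Ube2k and Pds5a, with log2 fold changes from -0.23 for Rfc1 to 0.09 for Wdr19. None passed the adjusted threshold (edgeR quasi-likelihood). Rfc1, which loads the replication clamp, lay below all controls in every knockout (adjusted p = 0.125, edgeR quasi-likelihood). It was 1 of the 9, and such a separation occurred in 1.27% of all tested genes.

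Of the 9 ligand and receptor genes, none passed the adjusted threshold in edgeR, against the 0.799% of all tested genes that did. Fgfr3 and Fgfr4 had an unadjusted p under 0.05, both with a higher level in knockouts, which is 2 of 9 genes against 9.47% of all tested genes. DESeq2, which called 2.43% of genes, and limma-voom with quality weights, which called 2.37%, each called 1 of the 9, Fgfr3. The median log2 fold change of the 9 was -0.11. Directions kept under every alternative were those of Fgfr1, Fgfr3, Fgfr4, Fgf2 and Fgf10, whereas Fgfr2, Fgf1, Fgf7 and Fgf21 changed sign in at least 1 of them.

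**Figure D2:**
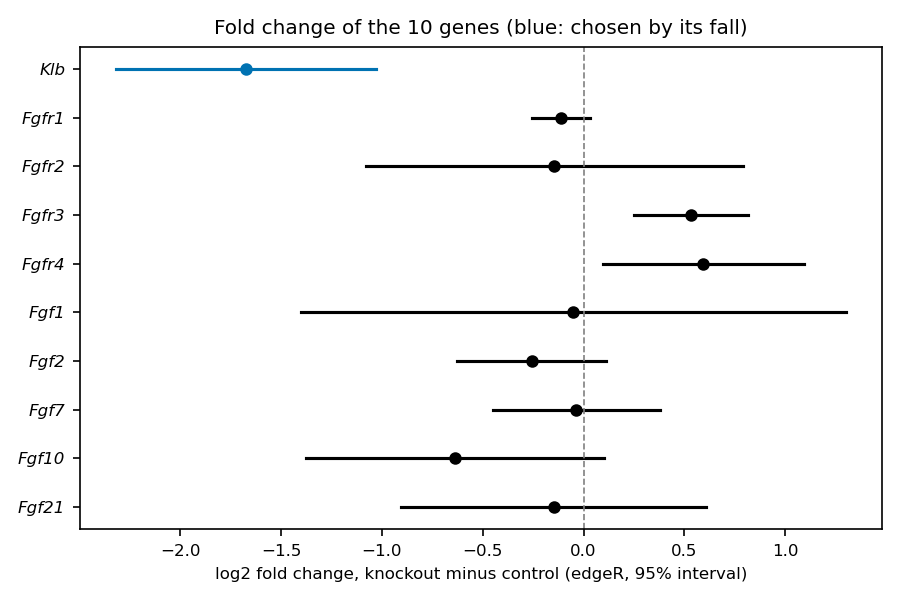
Log2 fold change of each gene, knockout minus control (x axis), from the edgeR fit over 16393 genes, with 95% intervals and a dashed line at no change. Klb, in blue, was chosen by its fall and is shown as a description; of the others only the intervals of Fgfr3 (0.25 to 0.81) and Fgfr4 (0.09 to 1.09) leave out 0, before adjustment.

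Among the receptors, Fgfr3, best known for restraining bone growth, was higher in every knockout library. Controls 1 to 6 held 7.82, 7.78, 9.84, 8.89, 9.12 and 6.19 CPM, and knockouts 1 to 6 held 13.5, 10.3, 11.2, 11.6, 15.2 and 10.1 CPM. The lowest knockout, replicate 6, lay just above the highest control, replicate 3. Such a separation with the knockouts higher occurred in 0.159% of tested genes, 26 in number. The log2 fold change was 0.53 (SE 0.13), and the adjusted p was 0.0907 in edgeR's quasi-likelihood test. It was 0.00822 in DESeq2 and 0.0358 in limma-voom, so the call depends on the tool. With each library left out, the edgeR adjusted p stayed between 0.0707 and 0.186, and with paired libraries summed it was 0.334. On the opposite strand the gene G630022F23Rik overlaps 13.9% of the exon bases of Fgfr3 and is listed at 0 counts, and no source used here gives the strand setting of the read counting.

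Fgfr4, the receptor that regenerating myoblasts express strongly, was more variable. Controls 1 to 6 held 49.0, 51.2, 35.2, 37.4, 40.6 and 31.0 CPM, and knockouts 1 to 6 held 48.0, 29.0, 92.1, 79.5, 57.2 and 62.6 CPM. Knockouts 3 to 6 lay above all controls, knockout 1 within their range and knockout 2 below it. The log2 fold change of 0.59 (SE 0.23) had adjusted p = 0.385 by edgeR's quasi-likelihood test, and this adjusted p ranged from 0.069 to 0.715 with each library left out.

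Fgfr4 followed the satellite cell and myoblast score, the mean log2 CPM of 13 tested markers that do not include it. In knockouts r was 0.976 (exact permutation p = 0.00278, 0.0222 after adjustment over 8 relations) and rho was 0.943 (exact p = 0.0167, adjusted 0.133). In controls r was 0.893 (exact p = 0.0153, adjusted 0.0611) and rho was 0.771 (exact p = 0.103, adjusted 0.272). Without the 2 libraries farthest from the median score r was 0.928 in knockouts and 0.855 in controls. These tests treat the 6 libraries of a group as independent, although all knockouts and 4 controls fall into the pairs given above. With 3 pairs of knockouts the p-values may be too small, here and in the other relations within groups. Knockouts 3 and 4, which form such a pair, had the highest values of both the gene and the score, and knockout 2 and control 6 the lowest. The score was 5.39 ± 0.22 (SD, n = 6) in controls and 5.69 ± 0.30 (SD, n = 6) in knockouts. Of its 13 genes, 5 were higher at an unadjusted p under 0.05, against 9.47% of all tested genes in either direction. None passed the adjusted threshold in edgeR, and DESeq2 and limma-voom called 2 each, against 2.43% and 2.37% of all genes. Summed over the 14 listed markers the level was 2555 to 3898 CPM in controls and 2658 to 4739 CPM in knockouts. The part of these cells in the level of Fgfr4 was not tested.

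**Figure D3:**
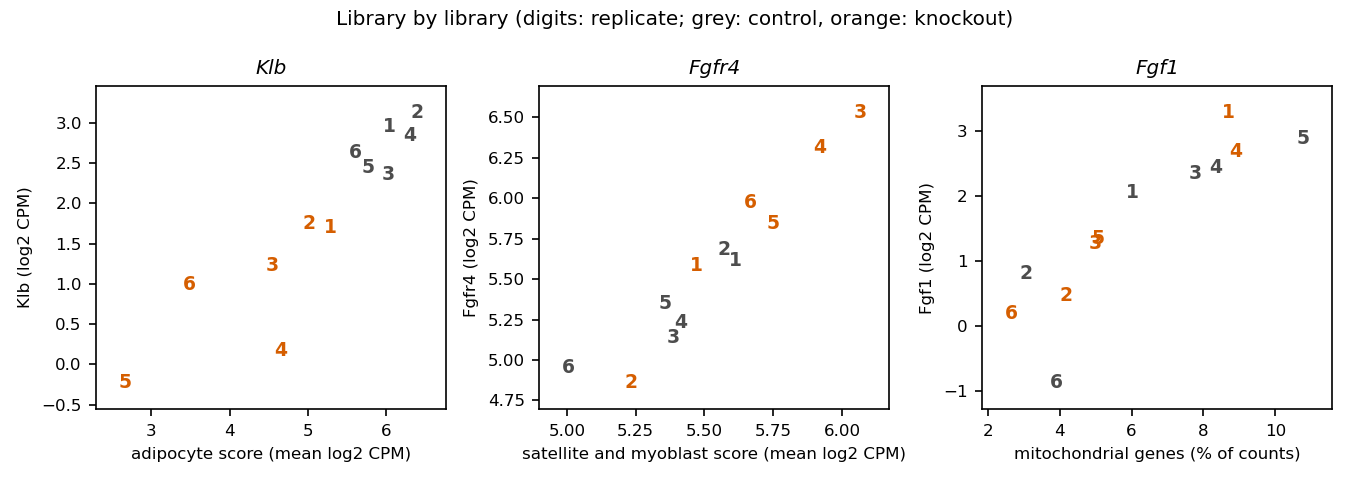
Each digit is a library (replicate number; grey control, orange knockout), with a gene's log2 CPM on the y axis. The left panel sets Klb against the adipocyte score, the middle one Fgfr4 against the satellite cell and myoblast score, and the right one Fgf1 against the mitochondrial share of counts in percent; the r of Fgfr4 with its score is 0.893 in controls and 0.976 in knockouts.

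Fgfr1, the receptor with the highest level per gene length in controls, was the steadiest of the 10 genes. It ranged from 172 to 181 CPM in controls (median 175) and from 148 to 184 CPM in knockouts (median 162), with a coefficient of variation of 2.15% in controls. Its log2 fold change was -0.11 (95% interval -0.25 to 0.03, adjusted p = 0.697, edgeR quasi-likelihood). That interval, 0.839-fold to 1.02-fold, is the narrowest of the 10. Fgfr2, an epithelial receptor for FGF7 and FGF10 in its IIIb form, ranged from 5.28 to 14.8 CPM in controls (median 8.78) and from 1.51 to 13.9 CPM in knockouts (median 9.11). Knockouts 3 and 4 lay below all controls and the others among them, and the log2 fold change was -0.14 (95% interval -1.08 to 0.79).

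The make-up of receptor RNA was compared per gene length, as each receptor's share of the summed FPKM of Fgfr1 to Fgfr4. FPKM scales fragments by gene length and library depth. Fgfr1 took 57.0% ± 4.01 in controls and 46.5% ± 6.70 in knockouts, and Fgfr4 took 36.4% ± 4.99 and 46.3% ± 8.92 (SD, n = 6 each). Fgfr1 was the larger of these shares in all 6 controls, while in knockouts 3 to 6 Fgfr4 was. Knockouts 3 and 4, and 5 and 6, are pairs given above, as are 1 and 2. The test of shares treats all 12 libraries as independent, so its p-values may be too small. Shares were not tested with pairs summed. The differences had exact two-sided permutation p = 0.0130 and 0.0476, which after adjustment over the 4 receptors became 0.0519 and 0.0952. Without knockout replicate 2, the library with the least Fgfr4, the adjusted exact p was 0.00866 for Fgfr1 (difference -12.9 percentage points) and 0.0216 for Fgfr4 (12.8). With any other library left out it was 0.0519 to 0.104 for Fgfr1 and 0.0779 to 0.173 for Fgfr4, so only that fit passed. Fgfr3 went from 3.69% to 4.76% and Fgfr2 from 2.91% to 2.47% (adjusted exact permutation p = 0.118 and 0.600). Shares within a library sum to a whole, so a higher Fgfr4 share lowers the others.

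**Figure D4:**
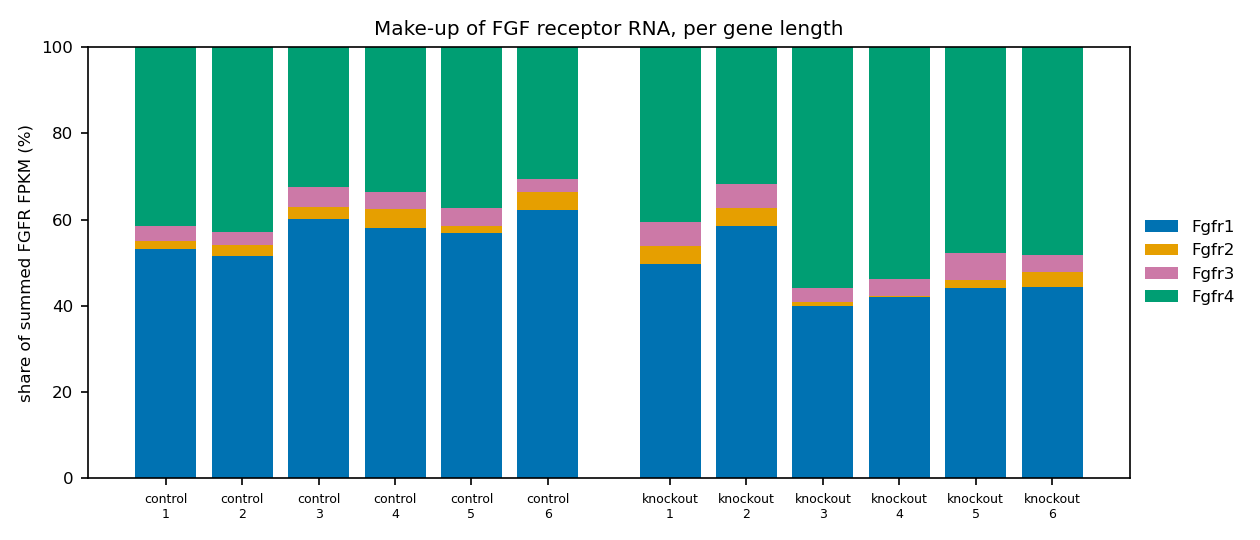
Share of the summed FPKM of the 4 FGF receptors (y axis, percent) taken by each receptor in each of the 12 libraries (x axis). Fgfr1 and Fgfr4 make up most of the sum everywhere, and in knockouts 3 to 6 the Fgfr4 part (47.7% to 55.8%) is larger than that of Fgfr1 (40.04% to 44.4%).

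Among the ligands, Fgf21, the ligand that uses beta-Klotho, ranged from 1.37 to 3.52 CPM in controls (median 2.53) and from 0.898 to 3.51 CPM in knockouts (median 2.53). Knockouts 1 and 2 lay below all controls and the other 4 within their range. The log2 fold change was -0.15 (95% interval -0.90 to 0.61, adjusted p = 0.969, edgeR quasi-likelihood). Genes of the integrated stress response, the pathway through which ATF4 raises Fgf21, were all tested, and none of the 15 passed the adjusted threshold in edgeR. Of the 15, 1 was higher and 2 were lower at an unadjusted p under 0.05, against 9.47% of all tested genes in either direction. Phgdh and Psat1 of serine synthesis had log2 fold changes of -0.50 and -0.28, and Ddit4, an inhibitor of mTORC1, one of 0.48 (adjusted p = 0.288, 0.307 and 0.332, edgeR quasi-likelihood). No relation between Fgf21 and the mean log2 CPM of these 15 genes passed the test: r was -0.0905 in controls (rho = 0.0857) and -0.668 in knockouts (rho = -0.486), with adjusted exact permutation p for r of 0.897 and 0.273 and for rho of 0.919 and 0.474.

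Fgf10, a mesenchymal ligand that supports fat precursors, ranged from 2.69 to 6.14 CPM in controls (median 4.15) and from 1.30 to 5.27 CPM in knockouts (median 2.40). Knockouts 1, 3, 4 and 5 lay below all controls, and knockouts 2 and 6 among them. The log2 fold change of -0.64 had a 95% interval of -1.38 to 0.10 and an adjusted p of 0.626 (edgeR quasi-likelihood). Of 20 FAP markers, 17 had a lower level in knockouts, with a median of -0.21 on the log2 scale. Of these Col15a1, a basement membrane collagen, and Gsn, gelsolin, passed the adjusted threshold (edgeR), 2 genes of 20 against 0.75% of all tested genes that were lower and passed. DESeq2 and limma-voom called 5 each, against 2.43% and 2.37% of all genes, and with library pairs summed edgeR called 0. Summed FAP markers were 10707 to 14268 CPM in controls and 8208 to 13258 CPM in knockouts, and their part in the Fgf10 level was not tested. Within groups Fgf10 and the FAP score had r = 0.492 in controls (rho = 0.486) and 0.342 in knockouts (rho = 0.371), with adjusted exact permutation p of 0.376 and 0.537 for r and of 0.474 and 0.568 for rho. Without the 2 farthest libraries these r fell to 0.101 and -0.158, so they rest on those libraries.

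Fgf7, keratinocyte growth factor, ranged from 9.60 to 16.5 CPM in controls (median 11.97) and from 6.52 to 15.6 CPM in knockouts (median 12.8), with a log2 fold change of -0.04 (95% interval -0.45 to 0.38). Fgf2, basic FGF, ranged from 4.98 to 6.37 CPM in controls (median 5.60) and from 2.67 to 6.45 CPM in knockouts (median 4.83), with a log2 fold change of -0.26 (95% interval -0.63 to 0.11). Nudt6 overlaps 9.44% of the Fgf2 exon bases on the opposite strand and averaged 14.7 counts in controls against 120 for Fgf2. Fgf1, acidic FGF, was the most variable member, from 0.457 to 7.29 CPM in controls (median 4.51) and from 1.05 to 9.59 CPM in knockouts (median 2.38). Its log2 fold change was -0.05 with a 95% interval of -1.40 to 1.30, so differences of more than 2-fold either way remain within the interval. Neither Fgf7, Fgf2 nor Fgf1 passed the threshold (adjusted p = 0.992, 0.759 and 0.997, edgeR quasi-likelihood), and the groups overlapped in all of them.

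Per gene length, the controls were ordered as Fgfr1 (17.6 FPKM), Fgfr4 (11.4), Fgf7 (3.69), Fgf21 (2.57), Klb (1.44), Fgfr3 (1.14), Fgf10 (0.923), Fgfr2 (0.893), Fgf1 (0.840) and Fgf2 (0.819). Among neighbours in this order, only Fgfr1 and Fgfr4, and Fgfr4 and Fgf7, had ranges over the 6 libraries that did not overlap. In knockouts Fgfr4 came first (17.2 FPKM), then Fgfr1 (16.4), Fgf7 (3.62), Fgf21 (2.34), Fgfr3 (1.66), Fgf1 (0.820), Fgfr2 (0.808), Fgf2 (0.691), Fgf10 (0.596) and Klb (0.449). There only Fgfr1 and Fgf7 had ranges that did not overlap. Klb thus went from the fifth to the last place, a change that its choice partly fixes, while Fgfr1 and Fgfr4, which overlap in knockouts, changed places.

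Variation between libraries of the same group was then compared with scores of other cell types, in 90 relations that were added after the data were seen. Each used 12 libraries with the group mean removed and a permutation test within groups, with adjustment over the 90. Some libraries may not be independent, given the pairs above. Fgf1 followed the mitochondrial share of counts (r = 0.893, permutation p = 0.00031, adjusted 0.0093; rho = 0.930, adjusted 0.0207) and the muscle fibre score (r = 0.763, adjusted permutation p = 0.0492; rho = 0.797, adjusted 0.0582). Without the 2 farthest libraries these r were 0.889 and 0.865. With group means removed, Fgf1 was thus higher in libraries with more fibre and mitochondrial RNA. The part of fibre RNA in the level of Fgf1 was not tested.

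The other relations past the adjusted threshold by r had both signs. Fgf7 ran against the mitochondrial share (r = -0.755, adjusted permutation p = 0.0492; rho = -0.783, adjusted 0.0652). With the muscle fibre score it passed by rank alone (rho = -0.839, adjusted permutation p = 0.0216; r = -0.673, adjusted 0.181). Fgf10 rose with the macrophage score (r = 0.881, adjusted permutation p = 0.0187; rho = 0.874, adjusted 0.043), and Fgfr1 fell with the endothelial score (r = -0.884, adjusted permutation p = 0.00765; rho = -0.804, adjusted 0.0582). Fgfr4 rose with the satellite and myoblast score (r = 0.940, adjusted permutation p = 0.0054; rho = 0.888, adjusted 0.0366) and with the myocyte score (r = 0.810, adjusted permutation p = 0.0492; rho = 0.769, adjusted 0.128). Without the 2 farthest libraries these 5 r were -0.730, 0.784, -0.763, 0.926 and 0.715. For Klb the smallest p for r was with the stress response score (r = 0.705, permutation p = 0.0197, adjusted 0.174; rho = 0.608, adjusted 0.33). With the adipocyte score its r was 0.730 (permutation p = 0.0602, adjusted 0.297; rho = 0.706, adjusted 0.244). No relation of Klb, Fgfr2, Fgfr3, Fgf2 or Fgf21 passed the adjusted threshold.

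**Figure D5:**
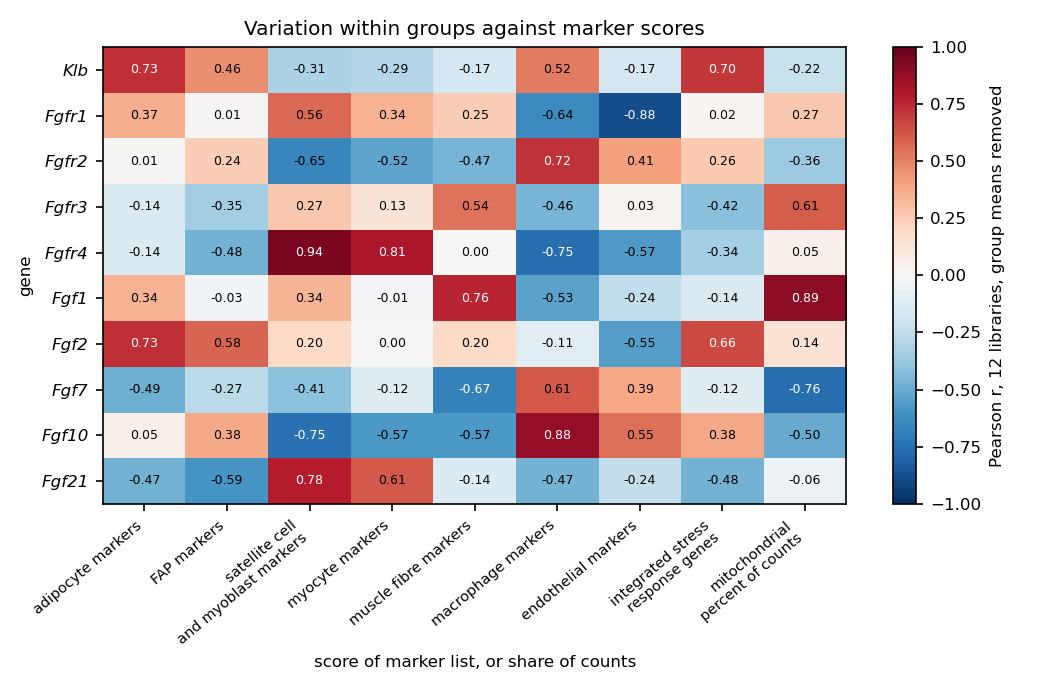
Pearson r between each gene (rows) and each marker score, or the mitochondrial share of counts (columns), over 12 libraries with group means removed. Red is positive and blue negative; the largest sizes are Fgfr4 with the satellite and myoblast score (0.940), Fgf1 with the mitochondrial share (0.893) and Fgfr1 with the endothelial score (-0.884).

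The rest of the FGF pathway was read from lists made by function. Of 17 other Fgf genes 6 were tested. The 6 include Fgf11 and Fgf13, which encode intracellular factors and not classical receptor ligands. Of the 6, 3 had an unadjusted p under 0.05 (2 higher, 1 lower), against 9.47% of all tested genes in either direction. Fgf15 and Fgf23, the other endocrine ligands, had at most 3 counts in any library. None of the 6 passed the adjusted threshold in edgeR. Fgf18 had a log2 fold change of -1.08 (SE 0.30, adjusted p = 0.131, edgeR quasi-likelihood), and Fgf6, a ligand of muscle, and Fgf9 had 0.89 and 0.52. The list's median was 0.23. Of 12 other receptors and co-receptors 11 were tested and none passed. At an unadjusted p under 0.05, 2 were higher and 1 lower, so 3 of 11 against 9.47% of all tested genes. The exception to testing was Kl, the co-receptor of FGF23, with at most 4 counts. Lctl, a Klotho-like protein, had a log2 fold change of -1.12 (SE 0.31, adjusted p = 0.140, edgeR quasi-likelihood), and the adhesion molecules Ncam1 and Cdh2 had 0.42 and 0.37. The median of that list was -0.01.

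Co-factors and adaptors of the receptors held no gene past the adjusted threshold. All 23 genes of heparan sulphate proteoglycans and their enzymes were tested and none passed the adjusted threshold in edgeR, with a median of 0.01. At an unadjusted p under 0.05, 4 were higher and 2 lower, so 6 of 23 against 9.47% of all tested genes. The smallest p belonged to Gpc1 and Gpc2, which are glypicans, and Hs6st2, a sulphotransferase, at 0.37, 0.54 and 0.47 on the log2 scale. All 22 adaptor genes were tested, none passed and the median was 0.02. Of these genes 1 had an unadjusted p under 0.05, against 9.47% of all tested genes. Their smallest p belonged to Frs3, a docking protein of the receptors, at 0.32 on the log2 scale, and Crkl, an adaptor protein, had 0.09.

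Feedback and target genes of FGF signalling split in direction. Of 18 tested, none passed the adjusted threshold in edgeR and the median was 0.08. At an unadjusted p under 0.05, 2 were higher and 2 lower, so 4 of 18 against 9.47% of all tested genes. Dusp4, a phosphatase of MAP kinases, ranged from 11.9 to 17.4 CPM in controls and from 5.73 to 13.0 CPM in knockouts, a log2 fold change of -0.73 (SE 0.19). Spry4, a Sprouty inhibitor of receptor signalling, ranged from 10.3 to 15.5 CPM and from 7.27 to 10.97 CPM, a log2 fold change of -0.49 (SE 0.13). Dusp5, a phosphatase of nuclear ERK, ranged from 7.07 to 9.43 CPM and from 7.91 to 14.8 CPM, a log2 fold change of 0.49 (SE 0.14). Groups overlapped in all of them, with adjusted p of 0.101, 0.119 and 0.153 in edgeR's quasi-likelihood test. DESeq2, which called 2.43% of all genes, called these 3 (adjusted p = 0.0159, 0.0289 and 0.0383) and limma-voom called Spry4 (adjusted p = 0.0363).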

How the data were processed

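Poly-A RNA libraries were sequenced on an Illumina platform, per the labels' protocols. The authors deposited raw gene counts (whole numbers, not normalized) and an FPKM table. The submitters' processing notes name fastp, HISAT2 2.0.5 and featureCounts on GRCm38. No source used here gives the strand setting. Counts were filtered with filterByExpr (minimum count 10, minimum total 15), scaled by TMM and fitted over all 12 libraries with edgeR 4.0.16 (robust quasi-likelihood, Benjamini-Hochberg over 16393 genes, threshold 0.05) in R 4.3.3. The code of the fit was run on simulated counts with independent libraries and the same dispersion for every gene. That run does not cover paired libraries or more variable genes. Standard errors were computed from fold changes and F statistics. Log2 CPM used a prior count of 2. DESeq2 1.42.0, limma 3.58.1 and other alternatives were run beside it. Correlations and permutation tests used Python 3.11.15 with SciPy 1.17.1.

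The members and gene lists were chosen with earlier results of these data known. Named are the 10 members, the 3 genes of each pathway list with the smallest p, the 6 genes most like Klb, the protein-coding genes within 250000 bases of it, and Pparg, Adipoq, Plin1, Lpl and Fabp4. A gene that this rule selects is not reported here and stays in the fit and the counts. Kl, Fgf11, Fgf13, Fgf15, Fgf23, Col15a1, Gsn, Nudt6, Ctbp2 and G630022F23Rik were named after their values were seen. No 2 libraries of a group agreed within sampling noise (lowest chi-square per degree of freedom 11.9). Words of 50 bases shared with other genes made up at most 3.48% of a member's longest transcript, the only one searched. On the same strand Ctbp2 overlaps 3.04% of the exon bases of Fgfr2. Ctbp2 averaged 570 counts in controls and 560 in knockouts, against 193 for Fgfr2 in controls.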

Additional observations from a re-analysis of the deposited data

Results flagged for a closer look

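In controls, Fgf7 was 16.5 CPM in replicate 6, apart from the other 5 libraries, of which the next highest held 12.1 CPM. The gap was 0.645 of the group's range, above Dixon's 95% critical value for 6 samples. It is 1 of 30 group checks, and chance flags about 1 in 20. In the same library the mitochondrial share of counts was 3.92%, the second lowest of the controls. Its part in this value was not tested. Without this library the log2 fold change of Fgf7 was 0.07 in place of -0.04.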

How the results depend on the processing

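Among the 9 ligands and receptors, 1 passed the threshold with DESeq2, limma-voom or the replicate block, and 0 in every fit that left out a library. The same-numbered libraries correlated from -0.133 to 0.464 in their deviations from group means, and controls 4 and 6, 2 of 6, correlated best with their own number, so the numbers were not taken as pairs. Over all genes, 399 passed with DESeq2, 389 with limma-voom, 236 with the replicate block, 0 with library pairs summed, and from 6 (without knockout replicate 3) to 214 (without knockout replicate 2) with a library left out. DESeq2 called 1 of the other Fgf genes (Fgf18) and 3 feedback genes, and DESeq2 and limma-voom each called 1 of the other receptors (Lctl). The replicate block called 1 feedback gene and 1 stress response gene, limma-voom 1 feedback gene, and leaving out libraries 0 to 1. The adjusted p of Fgfr3 was 0.048 with the replicate block, and no other member's call changed under it. Signs turned in small differences. Fgf1 was 0.051 on the log2 scale with pairs summed. With a library left out the log2 fold change ran from -0.347 to 0.0763 for Fgfr2, from -0.589 to 0.229 for Fgf1, from -0.130 to 0.0955 for Fgf7 and from -0.326 to 0.0139 for Fgf21. The share difference ran from -12.9 to -9.26 points for Fgfr1 and from 8.01 to 12.8 for Fgfr4. Without the 2 farthest libraries, r was 0.928 for Fgfr4 and the myoblast score in knockouts, 0.101 and -0.158 for Fgf10 and the FAP score in controls and knockouts, and 0.598 for Fgf21 and the stress response score in controls. The cause of these changes was not tested. Of 189 values of the 9 tested members under alternatives, 170 kept direction and side of the threshold. Low counts limit Klb, Fgf1, Fgf10 and Fgf21, with as few as 14, 9, 19 and 16 counts in a library.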
